A study of Homo sapiens with 4 samples.

Results

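ABC drug efflux transporters are membrane proteins that use ATP to move drugs, conjugated metabolites and lipids out of the cell. The 7 genes described here, ABCB1, ABCC1, ABCC2, ABCC3, ABCC4, ABCC5 and ABCG2, were chosen by name, and all 7 were found among 57746 genes listed. Total RNA had been sequenced from 4 human lines, of which 3 derive from the first. DLD1, the parental line, is a colorectal cancer line with the label epithelial. SA (soft agar colonies) and SPH (colonospheres) carry the label mesenchymal, and METS, taken from a metastasis that a xenograft formed in the lung, carries the label epithelial. No added gene or deletion is named for any line, and all 4 shared McCoy's 5A medium with fetal bovine serum, penicillin and streptomycin. Whether SA, SPH or METS are single clones or pools, and which host carried the xenograft, is not given in the sources used here. With 1 library per line, differences between lines could not be checked on replicates.

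In the intestine these pumps stand on opposite faces of the epithelial cell. P-glycoprotein (ABCB1), MRP2 (ABCC2) and BCRP (ABCG2) sit on the apical face and return compounds to the lumen, whereas MRP1 (ABCC1) and MRP3 (ABCC3) are basolateral and export glutathione and glucuronide conjugates towards the blood. MRP4 (ABCC4) and MRP5 (ABCC5) also carry cyclic nucleotides and nucleotide analogues. In cancer cells, ABCB1, ABCC1 and ABCG2 are known for resistance to several unrelated drugs.

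The 4 libraries were of like size. From 10920 to 11238 genes reached 1 RPKM (a read number divided by gene length and library size), and mitochondrial transcripts held 25.5% to 26.6% of the summed values. The epithelial markers EPCAM, CDH1, KRT8, KRT18, KRT19 and CDX2 were abundant in every line, and 2 of the 9 colorectal markers, CDX1 and LGALS4, stayed under 1 RPKM. The keratins differed between the lines, and KRT8 had 817.09 RPKM in DLD1, 565.38 for SA, 587.37 for SPH and 1084.21 for METS. The class folds of KRT8, KRT18 and KRT19 were -0.71, -0.64 and -0.59, and none passed the limma-trend test. In 4 of the 7 colorectal markers tested, both mesenchymal lines lay below both epithelial ones, as did 13.1% of all genes. The part of these differences in the transporter results was not tested. Markers of other cell types were near absent. The summed level of 8 fibroblast markers was 0.22 to 0.49 RPKM, that of 4 endothelial markers 0.16 to 0.27 and that of 5 lung epithelial markers 0.19 to 1.01. The 6 leukocyte markers summed to 0.78 to 1.76 RPKM, with PTPRC and CD3E listed at 0, and the 4 hepatocyte markers to 1.13 to 4.43, nearly all of it SERPINA1. PECAM1 was not analysed here.

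The shared mark of the family is the ABC signature, a run of 5 amino acids that closes over ATP in each nucleotide-binding domain. The stretches that encode it are shown because they define these genes as 1 family and show how far members resemble each other where reads could be confused. They were read from GENCODE 29 transcripts with 15 bases on each side, 5′ to 3′, and capitals mark the 15 signature bases.
ABCB1 first: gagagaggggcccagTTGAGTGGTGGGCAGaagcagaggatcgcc
ABCB1 second: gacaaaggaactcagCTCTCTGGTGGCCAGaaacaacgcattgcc
ABCC1 first: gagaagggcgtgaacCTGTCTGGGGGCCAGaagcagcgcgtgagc
ABCC3 first: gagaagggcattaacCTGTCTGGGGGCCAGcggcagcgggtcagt
ABCC4 first: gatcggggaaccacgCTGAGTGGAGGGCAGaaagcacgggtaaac
ABCC4 second: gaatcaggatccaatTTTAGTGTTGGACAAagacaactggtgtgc
ABCG2: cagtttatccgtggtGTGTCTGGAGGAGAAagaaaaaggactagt
ABCB1 and the 5 ABCC genes each held 2 such stretches, and ABCG2, which works as a pair of identical chains, held its signature at codon 186 of 655. The same search also matched at codon 352 of ABCG2, which lies outside its nucleotide-binding domain. ABCC1 and ABCC3 had the same 15 signature bases in the first stretch and 38 of 45 bases in common over it. Even so, no run of 50 bases in the main transcript of an ABCC member or of ABCG2 occurred in transcripts of another gene. In ABCB1, 2.52% of such runs also occur in its neighbour ABCB4, a phospholipid exporter that did not exceed 0.17 RPKM. No exon of another gene overlaps an exon of a member in that annotation.

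By RPKM as deposited, ABCB1, ABCC1 and ABCC4 ranked highest of the 7 in the parental line, and the apical pumps ABCC2 and ABCG2 were scarce in all lines. In DLD1 the levels were 11.17 RPKM for ABCB1 and for ABCC1. They were 10.27 for ABCC4, 5.51 for ABCC3, 4.10 for ABCC5, 0.44 for ABCG2 and 0.19 for ABCC2. ABCB1 stood above 64.9% of the genes that reached 1 RPKM in DLD1. SA kept this order, and in SPH ABCC3 passed ABCC4. In METS the order changed at the top, and ran from ABCC4 through ABCC1 and ABCC3 to ABCB1.

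**Figure D1:**
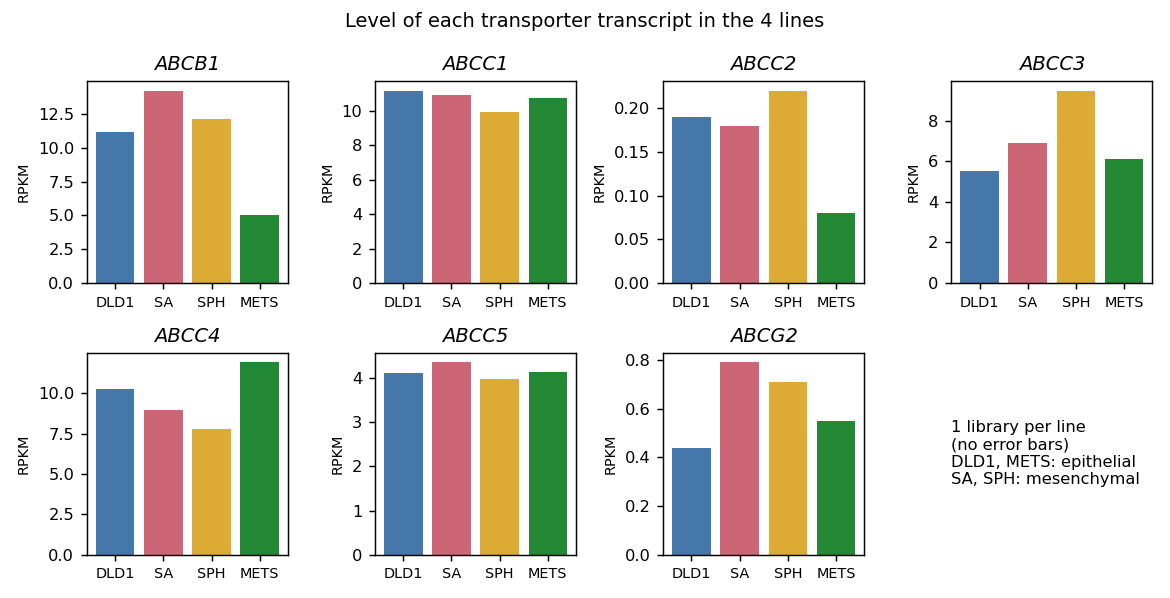
Level of each transporter transcript in RPKM (vertical axes from 0, with a scale of its own for each gene) in the 4 lines, 1 library per bar. ABCB1 is lowest in METS at 5.06 RPKM, ABCC3 highest in SPH at 9.47, and ABCC1 and ABCC5 stand at nearly the same height in all lines.

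ABCB1, the classical multidrug pump, differed more between lines than any other member. It had 11.17 RPKM in DLD1, while SA had 14.21, SPH 12.13 and METS 5.06. METS was thus far below the other 3, which lay within 1.27 times of each other, in the order SA, SPH and DLD1. All folds are differences in log2(RPKM + 1), which understate the change of low genes. METS differed from DLD1 by -1.01, from SA by -1.33 and from SPH by -1.12. As a plain ratio METS held 0.453 of the DLD1 level. Only 98 of 11275 genes compared lay lower than ABCB1 in METS against DLD1. A rule of at least 2-fold, applied where the higher library reached 1 RPKM, called 1 of 5 members in METS against DLD1, and 1.42% of all genes compared were called (0.523% higher and 0.896% lower). ABCB1 is close to that limit. It fell outside the rule after median-of-ratios scaling (-0.98) and with a pseudocount of 5 in place of 1 (-0.68).

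The counts behind these values were estimated from the steps in the low values of short genes. For each kb of exon, 1 RPKM stands for about 54.1 reads (DLD1), 48.5 (SA), 52.5 (SPH) and 50.2 (METS), and the estimates for SA and METS are less certain. ABCB1 then rests on about 3506 reads in DLD1 and 1475 in METS. The 95% Poisson intervals, 10.8 to 11.5 and 4.81 to 5.32 RPKM, did not overlap. Such intervals cover counting error only, and the spread between cultures of a line is unknown.

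**Figure D2:**
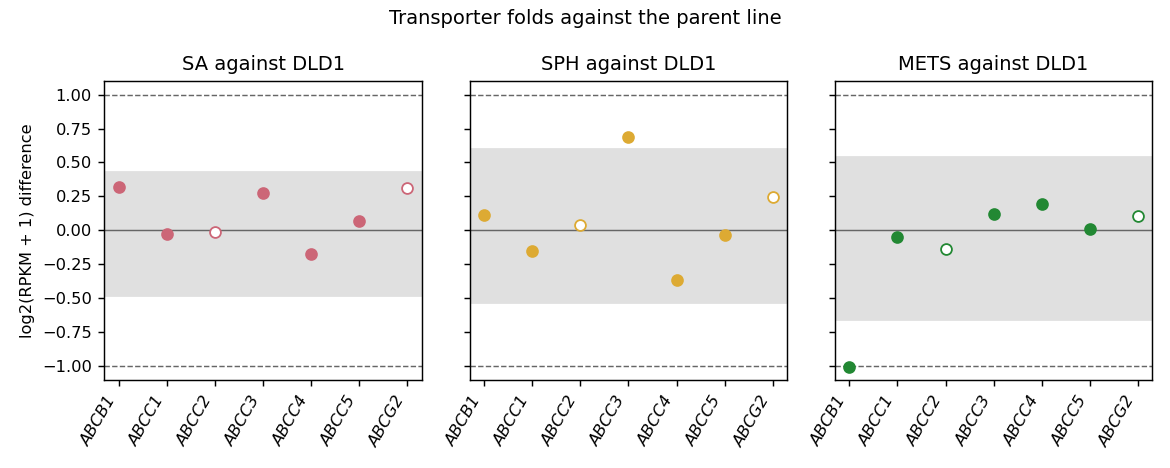
Difference in log2(RPKM + 1) of each transporter from DLD1 in SA, SPH and METS. The grey band holds the central 95% of all genes whose higher library reached 1 RPKM, dashed lines mark 2-fold, and open circles mark the 2 members under 1 RPKM. ABCB1 in METS (-1.01) and ABCC3 in SPH (0.69) lie outside the band.

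The apical pump ABCG2, known as a marker of side-population stem cells, was low in all lines. It had 0.44 RPKM in DLD1, while SA had 0.79, SPH 0.71 and METS 0.55. Both mesenchymal lines lay above both epithelial ones, as did 24.7% of the genes in the class test. About 120 reads in DLD1 and 193 in SA gave 95% counting intervals of 0.365 to 0.526 and 0.682 to 0.910 RPKM, which did not overlap. The interval of METS, 0.462 to 0.649 RPKM, overlapped those of DLD1 and of SPH (0.612 to 0.819). ABCG2 did not reach 1 RPKM and was left out of the class test. Its difference between class means was 0.23, and with no filter on low values its limma-trend adjusted p was 0.532.

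ABCC2, the apical exporter of conjugated bile pigments, was the scarcest member. It had 0.19 RPKM in DLD1, while SA had 0.18, SPH 0.22 and METS 0.08. METS was again the lowest line, with about 31 reads against 80 in DLD1. Its interval of 0.0544 to 0.114 RPKM lay below the 0.151 to 0.236 of DLD1, while those of DLD1, SA and SPH overlapped. In bulk RNA, fewer cells that express a gene and less RNA per cell cannot be told apart, for ABCC2 and ABCG2 as for ABCB1.

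ABCC3, the basolateral exporter of glucuronides and bile salts, was highest in the colonosphere line. It had 5.51 RPKM in DLD1, while SA had 6.87, SPH 9.47 and METS 6.09. SPH held 1.72 times the DLD1 level and 1.38 times that of SA, a fold of 0.69 against DLD1. No member of 5 was called at 2-fold in SPH against DLD1, where 1.26% of genes were (0.716% higher and 0.542% lower), and ABCC3 was called at 1.5-fold, as were 4.62% of genes (2.61% higher). The lines stood in the order SPH, SA, METS and DLD1, and the counting intervals of these neighbours did not overlap.

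ABCC4, an exporter of cyclic nucleotides and prostaglandins, ran opposite to ABCC3 in SA and SPH, but METS lay above DLD1 for both genes. ABCC4 had 10.27 RPKM in DLD1, while SA had 8.97, SPH 7.76 and METS 11.90. SPH was lowest and METS highest, and no counting intervals of neighbours in this order overlapped. The folds against DLD1 were -0.18 in SA, -0.36 in SPH and 0.19 in METS. METS held the transcript at 1.53 times the level of SPH, the widest ratio for this gene.

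ABCC1 and ABCC5 were nearly level. ABCC1, an exporter of glutathione conjugates, had 11.17 RPKM in DLD1, while SA had 10.92, SPH 9.96 and METS 10.74. For ABCC5, DLD1 had 4.10 RPKM, SA 4.35, SPH 3.97 and METS 4.14. The highest line held 1.12 times the level of the lowest for ABCC1 and 1.10 times for ABCC5. Counting intervals of lines next to each other in level overlapped in every case except METS and SPH for ABCC1. With 1 library per line no interval for a difference between cultures can be given, so these values do not show that the genes are equal in the lines.

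Summed over the 7 genes, DLD1 had 42.85 RPKM, SA 46.29, SPH 44.22 and METS 38.56. The sums were thus closer than the make-up. The share of ABCB1 was 26.1% in DLD1, against 30.7% for SA, 27.4% for SPH and 13.1% for METS. ABCC4 held 24.0%, 19.4%, 17.5% and 30.9% in the same order, and ABCC3 12.9%, 14.8%, 21.4% and 15.8%. ABCC2 and ABCG2 together held 1.47% to 2.10%. These shares rest on the gene lengths used for RPKM, which are not given.

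**Figure D3:**
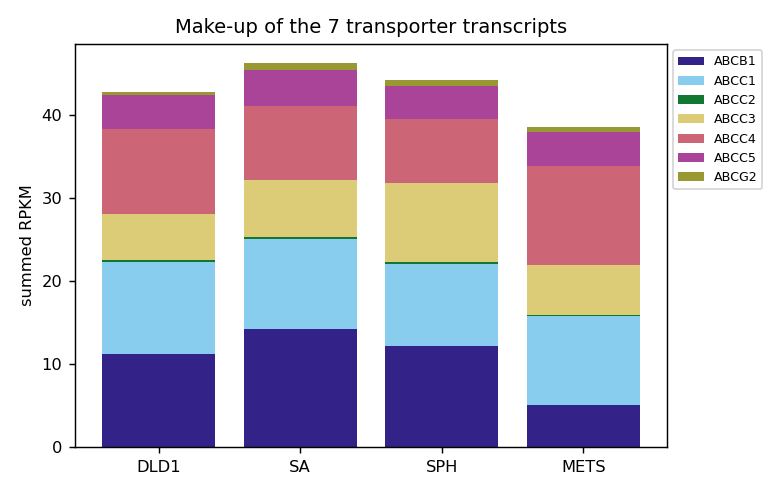
Summed RPKM of the 7 transporter transcripts in each line (vertical axis from 0), each colour 1 gene and each bar 1 library. The ABCB1 segment of METS (13.1% of the sum) is the smallest of the 4, and its ABCC4 segment (30.9%) the largest.

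The labels set SA and SPH (mesenchymal) against DLD1 and METS (epithelial), and this was the 1 comparison that could be tested, with 2 lines per class. The 5 members of at least 1 RPKM in 2 or more lines entered a limma-trend fit over 11262 genes. None passed an adjusted p of 0.05, against 0.355% of all genes (0.320% higher and 0.0355% lower in the mesenchymal lines), and 2 of 5 had an unadjusted p under 0.05, against 8.65%. ABCB1 was higher in the mesenchymal lines by 0.72 ± 0.31 (SE, limma-trend adjusted p = 0.608). ABCC3 was higher by 0.42 ± 0.16 and ABCC4 lower, at -0.37 ± 0.13 (adjusted p = 0.554 and 0.515, limma-trend). ABCC1 stood at -0.06 ± 0.11 and ABCC5 at 0.01 ± 0.11 (adjusted p = 0.929 and 0.993, limma-trend). For ABCB1, ABCC3 and ABCC4 both lines of a class lay on 1 side of both lines of the other, as did 37.8% of the genes tested (24.7% with the mesenchymal lines higher and 13.1% lower). ABCB1 and ABCC4 also had SA and SPH on 1 side of DLD1 and METS on the other, as did 23.7% of genes (16.1% in the direction of ABCB1 and 7.64% in that of ABCC4). The median fold of the 5 members was 0.01, against 0.04 over all genes tested.

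The class fold of ABCC3 was 0.21 without SPH and 0.62 without SA. The ABCB1 class fold turned on DLD1 and METS. Without METS it was 0.22 and without DLD1 it was 1.22, with 1 epithelial line left in each case. Such a fit assumes that this line varies like the others, so only the folds are given. The p-values of the class test measure the spread between different lines of a class, not between cultures.

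No member was called at 2-fold in SA against DLD1 or in SPH against SA, where 0.677% of genes (0.440% higher, 0.238% lower) and 0.262% (0.131% in each direction) were called. The medians of the 5 members against DLD1 were 0.07 in SA, -0.04 in SPH and 0.01 in METS, beside 0.03, 0.03 and -0.03 over all genes compared. These 3 comparisons share the DLD1 library.

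The other ABC genes differed little. Of 38 further family members that are not pseudogenes, 14 reached 1 RPKM, and 5 were listed at 0 in all lines. None of the 14 was called at 2-fold in any of the 4 comparisons and none passed the class test. Of all genes, 0.262% to 1.42% were called at 2-fold in these comparisons and 0.355% passed. The absence of calls among 14 genes is near those shares. The most abundant were ABCE1 (35.74, 40.69, 36.86 and 40.87 RPKM for DLD1, SA, SPH, METS in turn) and ABCF1 (32.77, 33.43, 28.48 and 27.91), which act on ribosomes and carry nothing across membranes. ABCC10, another multidrug resistance protein, was lower in the mesenchymal lines by fold (-0.20), like ABCC4, at 3.34, 3.05, 2.78 and 3.63 RPKM. ABCB9, a lysosomal peptide transporter, stood at 1.08, 1.19, 1.30 and 0.91 RPKM, and ABCD3, of the peroxisome, at 15.54, 16.26, 16.09 and 14.00. In METS 11 of the 14 lay below DLD1, with a median of -0.16. Of all 11275 genes compared, 5042 lay above DLD1 in METS, and the median was -0.03.

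**Figure D4:**
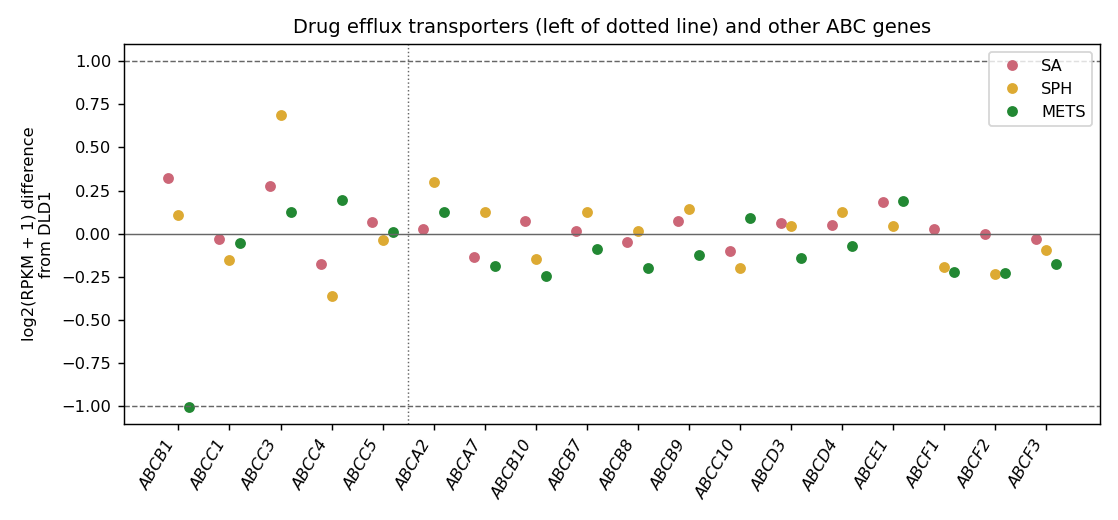
Difference in log2(RPKM + 1) from DLD1 for the 5 drug efflux transporters and 13 of the 14 other ABC genes that reached 1 RPKM, in SA, SPH and METS (1 library each). Dashed lines mark 2-fold, which ABCB1 in METS (-1.01) alone reaches.

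The genes near ABCB1 on chromosome 7 that reached 1 RPKM differed little between METS and DLD1. The set of neighbours was chosen after the ABCB1 values were seen, and only gene order was taken from RefSeq. Of the 8 nearest protein-coding neighbours, DBF4, an activator of replication origins, stood at 11.14 RPKM in DLD1 and 10.37 in METS. The mitochondrial carrier SLC25A40 stood at 6.17 and 6.07, TMEM243 at 5.66 and 5.74, and DMTF1, a transcription factor that binds cyclin D, at 4.90 and 5.31. ABCB4 and RUNDC3B were scarce and lowest in METS, at 0.09 and 0.10 RPKM in DLD1 and 0.04 and 0.05 in METS. Folds of the 8 genes in METS against DLD1 ran from -0.09 to 0.10. That scale flattens ABCB4 and RUNDC3B, the genes on either side of ABCB1, so their folds do not show that they were level.

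**Figure D5:**
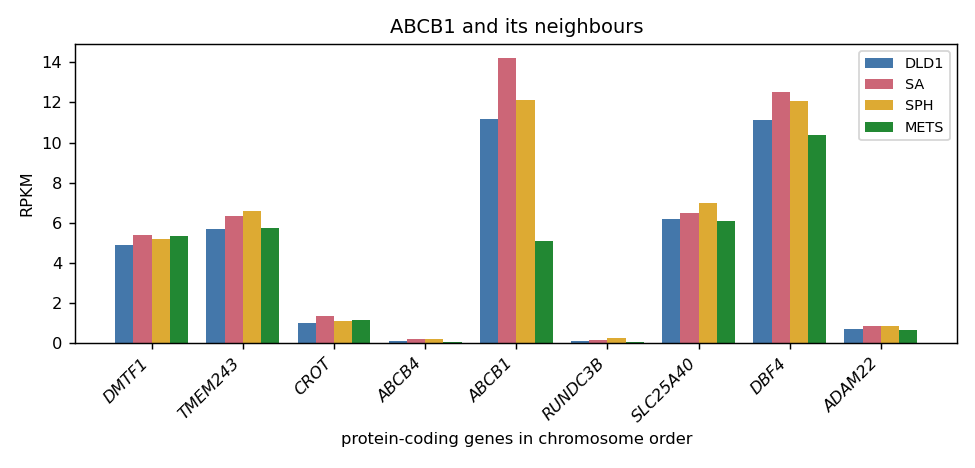
RPKM (vertical axis from 0) of ABCB1 and of the 4 nearest protein-coding genes on each side, in chromosome order, in the 4 lines with 1 library per bar. ABCB1 drops to 5.06 RPKM in METS while DBF4, SLC25A40, TMEM243 and DMTF1 differ from DLD1 by at most 0.10 on the log2 scale there.

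The genes whose profile over the 4 libraries lay nearest to that of ABCB1 were ETS2, CCDC183-AS1, QPCT, STMN1 and SYTL2. Likeness was the Euclidean distance between profiles of log2(RPKM + 1) centred on their own mean, over 11663 genes of at least 1 RPKM in a line. It ran from 0.12 to 0.16 for these 5, against 1.02 for a flat profile. ETS2, a transcription factor of the ETS family, had 49.56 RPKM in DLD1, while SA had 58.96, SPH 55.51 and METS 22.46. The microtubule destabiliser STMN1 stood at 37.62, 42.26, 42.67 and 18.01. The glutaminyl cyclase QPCT stood at 19.52, 23.30, 20.62 and 10.10, and SYTL2, which tethers secretory vesicles, at 6.78, 7.97, 6.16 and 2.50. CCDC183-AS1 stood at 1.79, 2.78, 2.41 and 0.47, but it is antisense and its reads may not be separable by strand. Likeness over 4 libraries is a description of them.

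The 2 members that lay on opposite sides of DLD1 in the mesenchymal lines and in METS, ABCB1 and ABCC4, are shown with their start regions. RefSeq windows of 250 bases before a start (GRCh38.p14) matched 5 of the 7 members. The part outside annotated exons is shown 5′ to 3′ on the minus strand, for ABCB1 at the downstream one of its 2 listed starts and for ABCC4.
ABCB1 chr7:87601079-87601134: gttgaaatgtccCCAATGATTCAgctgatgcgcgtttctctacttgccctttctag
ABCC4 chr13:95301476-95301701: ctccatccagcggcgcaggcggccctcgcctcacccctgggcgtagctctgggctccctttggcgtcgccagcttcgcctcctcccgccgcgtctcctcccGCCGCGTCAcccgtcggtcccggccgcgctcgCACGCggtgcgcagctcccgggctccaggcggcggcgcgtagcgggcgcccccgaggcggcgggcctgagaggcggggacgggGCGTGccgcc
Capitals mark matches of 8 motifs searched on both strands: the letters GGGCGG as the box bound by SP1, ATTGG as the motif of NF-Y, TATAAA as the core promoter box, and CAGGTG as the E-box of the SNAIL and ZEB repressors. They were also TGANTCA for the AP-1 factors, TGACNNNGC for the antioxidant response, ATCAAAG for the TCF factors and GCGTG for the aryl hydrocarbon receptor. In the printed part of ABCB1 they are an NF-Y and an AP-1 motif that overlap in 1 base, and the rest of its window holds another NF-Y motif and 1 core of the aryl hydrocarbon receptor. In ABCC4 they are 1 antioxidant response core and 2 cores of the aryl hydrocarbon receptor.

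The ABCC4 window held 42 CpG dinucleotides, more than 98.6% of 35116 windows, and that of ABCB1 held 12, with a median of 11 over all windows. Of all windows, 32.0% held the NF-Y motif, 6.57% the AP-1 motif, 10.9% the antioxidant response core and 32.2% the aryl hydrocarbon receptor core. The SP1 box occurred in 42.6%, the E-box in 17.5%, the core promoter box in 10.7% and TCF motifs in 2.26%. A match is a description of the sequence, and which start these cells use was not measured.

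Among 20 regulators known to act on efflux genes, 14 reached 1 RPKM and none passed the class test, beside 0.355% of all genes. AHR, the ligand-activated receptor for dioxins and related compounds, had 16.35 RPKM in DLD1, while SA had 20.30, SPH 16.10 and METS 46.67. METS was thus apart from the other 3, a fold of 1.46 against DLD1, and AHR was the 1 regulator of 14 called at 2-fold in METS, where 1.42% of all genes were called and 0.523% as higher. The lipid-sensing receptor PPARA stood at 0.99, 1.42, 1.93 and 1.05 RPKM, and the stress factors FOXO3 at 4.28, 3.09, 3.37 and 4.37 and FOXO1 at 2.66, 2.56, 3.13 and 1.73. YBX1 was the most abundant (860.57 to 951.65 RPKM over the 4 lines), and HIF1A ranged from 28.66 to 35.16. The xenobiotic receptors NR1I2 and NR1I3 did not reach 1 RPKM.

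The 10 genes listed as apical scaffold and membrane partners were chosen with earlier results of these data known. Calls among them describe the list only. Of the 10, 9 were tested and 1 passed, beside 0.355% of all genes (0.320% higher). It was MSN, moesin, which links membrane proteins to actin and was higher in the mesenchymal lines (class fold 1.58, limma-trend adjusted p = 0.0130), where SA had 2.23 RPKM and SPH 2.18, against 0.11 for DLD1 and 0.04 for METS. EZR, ezrin, a partner in the same role, stood at 159.0, 126.89, 116.89 and 172.07 RPKM. PDZK1, a scaffold of apical transporters, stood at 0.39, 0.22, 0.17 and 1.20 RPKM, and the scaffold SLC9A3R1 at 63.0, 53.99, 58.82 and 48.80.

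Enzymes that supply and attach glutathione, whose products the ABCC pumps export, showed no call in the class test. Of 19 genes 16 were tested, none passed, beside 0.355% of all genes, and their median class fold was -0.01. GSTP1, the major transferase here, stood at 213.88, 170.13, 212.63 and 148.43 RPKM over the same lines in turn, and GSTO1 at 56.24, 57.09, 59.95 and 59.81. GCLM, the modifier subunit of the enzyme that starts glutathione synthesis, stood at 7.02, 9.60, 9.48 and 7.23. GSTM3 stood at 37.38, 24.09, 23.60 and 28.88, and GSTZ1 at 1.76, 1.90, 2.53 and 1.62. MGST1, the membrane-bound transferase, which is also among the 10 membrane partners above, stood at 4.88, 2.22, 0.03 and 8.14. SPH was below DLD1 by more than 2-fold for MGST1, the 1 gene of 16 called there, beside 1.26% of all genes (0.542% lower). In METS 1 of the 16 genes was called at 2-fold, beside 1.42% of all genes (0.896% lower). It was GSTM4 (13.56 RPKM in DLD1, 5.88 in METS), which was named after its values were seen.

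Glucuronidation and sulfation, the other source of ABCC substrates, had 8 of 17 genes tested, and none passed, beside 0.355% of all genes. In METS 2 of the 8 were called as at least 2-fold lower than DLD1, where 0.896% of genes were. They were UGT1A6, a glucuronosyltransferase whose exons are shared within its locus, at 4.17, 6.58, 5.85 and 0 RPKM, and PAPSS2, which makes the sulfate donor, at 36.10, 39.56, 46.47 and 8.22. PAPSS1, its companion enzyme, stood at 26.50, 28.46, 30.13 and 31.16. From the locus of UGT1A6, the scarce UGT1A1, UGT1A8, UGT1A9 and UGT1A10 stood at 0.14 to 0.27 RPKM in DLD1 and 0 to 0.01 in METS. Reads of these genes and of UGT1A6 may not be separable. UGT8, which makes galactosylceramide, stood at 7.23, 13.87, 13.00 and 9.12, and SULT1C2 at 1.46, 0.82, 1.07 and 2.08.

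Of 23 drug uptake carriers and other exporters 13 were tested, none passed, and none was called at 2-fold in any comparison. Beside this, 0.355% of all genes passed and 0.262% to 1.42% were called at 2-fold, so an absence of calls among 13 genes is near those shares. SLCO1B3, an organic anion importer, stood at 11.66, 9.18, 6.29 and 12.63 RPKM over the lines in turn, and SLCO4A1 of the same family at 12.45, 15.60, 21.26 and 12.07. SPH was thus lowest for SLCO1B3 and highest for SLCO4A1. The vault protein MVP stood at 9.44, 6.08, 7.35 and 12.54, the copper exporter ATP7A at 1.68, 1.87, 2.11 and 1.66 and the nucleoside importer SLC29A1 at 28.89, 25.26, 24.65 and 22.57.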

How the data were processed

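Total RNA of 4 cell lines was sequenced, 1 library each. The authors deposited 1 table of RPKM values per gene, rounded to 2 decimals. The unit was read from the values, since value times exon length in kb gave sums of 915306 to 926302 over the 34099 genes whose names GENCODE 29 also holds. Per the submitters' processing notes, reads were placed on hg19. No aligner, counting tool, annotation or strand setting is given in the sources used here. Coordinates of printed sequences are those of GRCh38.p14 and were not joined to the values.

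Values were used as log2(RPKM + 1). Pairs of lines were described by a 2-fold rule with no test. The labelled classes were compared by limma-trend in R 4.3.3 with limma 3.58.1. This covered 11262 genes that reached 1 RPKM in 2 or more lines, with p-values adjusted by Benjamini-Hochberg, and the fit was tested on simulated data. Python 3.11.15 was used. Read numbers are estimates from the step of values in genes of 200 to 500 bases and from GENCODE 29 exon lengths.

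The members and lists were chosen with earlier results of these data known. The genes named are all members, the 5 nearest profiles to the member with the widest range, and per list up to 4 genes by class fold, up to 2 by level and any that passed. Exceptions are stated, and 3 genes that the rule or the marker lists would name are not reported here. Alternatives were pseudocounts of 0.1 and 5, no filter or 5 RPKM, fold rules of 1.5 and 4, limma with no trend, scaling by median of ratios, and each library left out in turn.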

Additional observations from a re-analysis of the deposited data

Results flagged for a closer look

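ABCB1 and ABCC4 lay on opposite sides of DLD1 in the mesenchymal lines and in METS. SA and SPH were above DLD1 for ABCB1 and METS was below it (log2 fold -1.01 against DLD1). SA and SPH were below DLD1 for ABCC4 and METS was above it (0.19). The difference was not tested, the 3 folds share the DLD1 library, and 23.7% of genes tested showed 1 of these patterns.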

How the results depend on the processing

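No member passed the class test under any pseudocount, filter, scaling or trend setting (limma). With a library left out, 1 class holds 1 line, so only folds are given, and whether a member passed in such a fit is not reported. That of ABCB1 was 0.22 without METS and 1.22 without DLD1. Of all genes, 40 passed as reported, 26 with a pseudocount of 0.1, 5 with a minimum of 5 RPKM and 0 of 24097 with no filter (2208 at an unadjusted p under 0.05, limma-trend), and 5 to 305 with a library left out. The 2-fold count in METS against DLD1 was 1 as reported, and 0 with a pseudocount of 5, with median-of-ratios factors or at 4-fold. In SPH against DLD1 it was 0 as reported and 1, ABCC3, at 1.5-fold. Counts in SA against DLD1 and SPH against SA were 0 under all settings run. The class fold of ABCC5, 0.01 as reported, was -0.021 with median-of-ratios factors and -0.043 (without SA) to 0.063 (without SPH) with a library left out. The signs of the other 4 tested members held under every setting run. With median-of-ratios factors the summed level of the 7 members was 43.0 RPKM for DLD1, 45.7 for SA, 43.6 for SPH and 39.5 for METS. Depth limits ABCC2, with about 31 to 91 reads per line, and ABCG2, with about 120 to 193. No paired analysis was possible because each line has 1 library.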
